A study of Macaca mulatta with 17 samples.

Results

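The small leucine-rich proteoglycans and versican were examined in the fetal rhesus macaque uterus. The 8 genes were decorin (DCN), biglycan (BGN), asporin (ASPN), lumican (LUM), fibromodulin (FMOD), PRELP, osteoglycin (OGN) and versican (VCAN, CSPG2 in the array's older annotation). Each was given by the brightest non-control probe whose description names the gene. All 8 genes were found, each with 1 probe, among 20217 probes that carry 16477 distinct gene names. Each probe was well above background on 17 of 17 arrays and saturated on 0.

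RNA from 17 individual uteri of female fetuses was labeled with Cy3, and each RNA was hybridized to 1 Agilent single-color macaque array. The dams ate a daily fruit treat that carried deuterated bisphenol A (BPA), a monomer of polycarbonate plastics with weak estrogen-like activity, at 400 µg per kg, or the ethanol vehicle. In the GD100 group dosing ran from gestational day 50 to delivery at day 100, with 5 control and 5 BPA fetuses on arrays. In the GD165 group dosing ran from day 100 to delivery at days 165 to 168, with 4 control and 3 BPA fetuses on arrays. GD100 fetuses were delivered by caesarian section and GD165 fetuses vaginally, so gestational age and the mode of delivery cannot be told apart. Nor can age and the window of dosing, which bears on age in BPA-exposed uteri and on any change of the BPA difference with age. The 6 slides were scanned on 1 day, and each array had 83.8 to 89.0% of its spots well above background. Precision is limited by how few arrays each group holds. All 8 smooth muscle markers and the 6 stromal fibroblast markers on the array were well above background on every array.

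Proteoglycans are core proteins that carry glycosaminoglycan chains and fill the space between collagen fibers. Small leucine-rich members bind collagen fibrils through their repeats, set fibril diameter and spacing, and hold growth factors such as TGF-β in the matrix. Decorin, biglycan and asporin form class I; lumican, fibromodulin and PRELP belong to class II, and osteoglycin to class III. Versican is a large chondroitin sulfate proteoglycan that binds hyaluronan and makes loose, hydrated, early matrix. In the uterus these genes are expressed mainly by stromal fibroblasts and smooth muscle.

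The genes also lie in groups on the chromosomes. In the gene order of the RefSeq table for the macaque assembly T2T-MMU8v2.0, LUM and DCN were adjacent, preceded by the class II gene keratocan (KERA) and the class III gene epiphycan (EPYC). OGN, osteomodulin (OMD), ASPN and ECM2 followed each other, as did FMOD, PRELP and opticin (OPTC). VCAN lay beside HAPLN1, which encodes the link protein that ties versican to hyaluronan. Within each group 0 protein-coding genes lay between the listed neighbors.

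The probes are 60 bases long. The first 30 bases are shown for the 4 genes with the smallest p values for age in controls, since each result for these genes rests on its 1 probe.
VCAN: tcttctttgctgcattcctttttcttcact
PRELP: ccctcttcctggggtgattttcctcggtgg
OGN: gttttcctcctatcaaggcagctattttat
ASPN: ctcaagtggtaagtccactgacattttatg
G and C made up 35 to 60% of the 8 probes. Over the 28 pairs of probes, the longest run that any pair shared was 10 bases on the same strand and 7 on the opposite strand.

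Levels are log2 signals after each array was scaled to its 75th percentile. They can be compared between uteri for 1 probe but not between probes.

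VCAN fell from GD100 to GD165 in controls and was the only one of the 8 genes past the threshold, an adjusted p of 0.01. Its level was 16.59, 16.75, 16.78, 16.61 and 16.50 in the 5 GD100 controls. In the 4 GD165 controls it was 15.59, 15.66, 16.03 and 15.45. All GD165 controls lay below all GD100 controls. The means were 16.65 ± 0.12 (SD, n = 5) and 15.68 ± 0.25 (n = 4), a log2 difference of -0.96 (SE 0.11), or 1.95-fold lower, with an adjusted p of 4.24e-05 in limma.

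The same fall was measured in BPA-exposed fetuses, which share no array with the controls. VCAN was 16.61, 16.74, 16.72, 16.67 and 16.65 in the GD100 BPA group and 15.75, 15.39 and 15.42 in the GD165 BPA group. Again no value of one age reached the range of the other. The log2 difference was -1.16 (SE 0.12), or 2.23-fold lower, with an adjusted p of 5.64e-05. On slides that held both ages, the difference was -1.12 and -0.91 on the 2 slides with controls and -1.23 on the 1 slide with BPA-exposed uteri. For age, each value within a slide, here and below, is 1 GD165 uterus minus 1 GD100 uterus. Slide and animal cannot be told apart in such a value. VCAN passed the threshold in both age comparisons whichever uterus was left out.

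**Figure D1:**
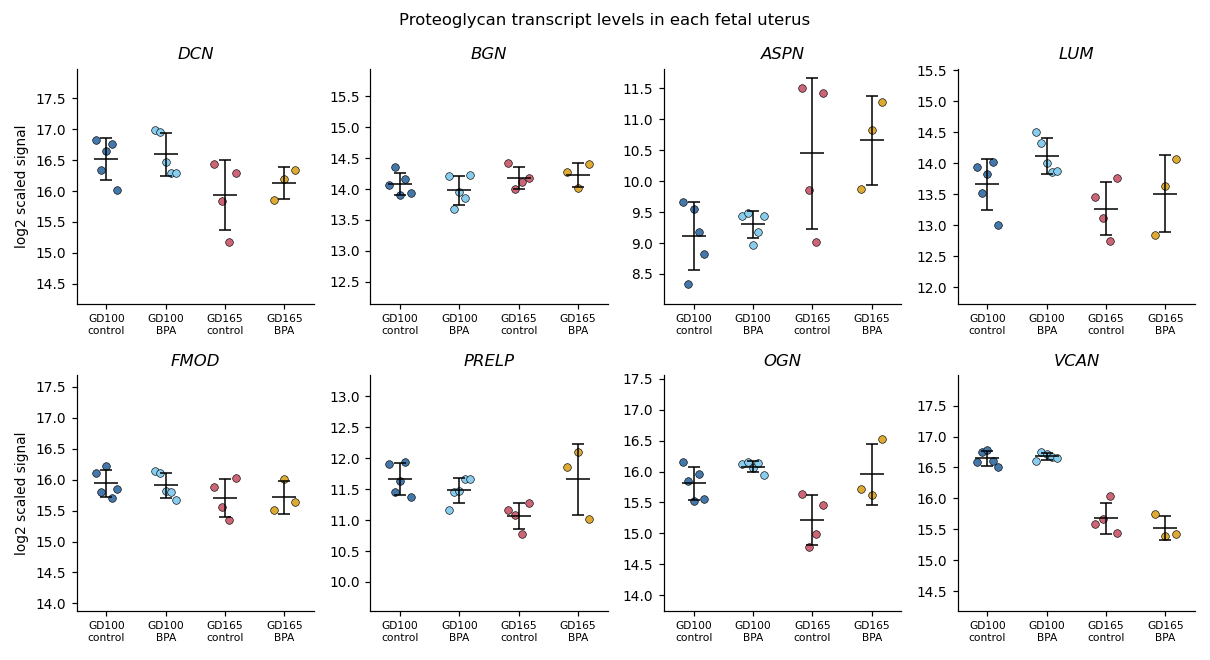
Log2 scaled signal (y axis) of each of the 8 proteoglycan genes in each uterus (points), by group (x axis); bars show the mean ± SD, and every panel spans the same number of log2 units. VCAN drops from 16.65 to 15.68 in controls with no overlap, ASPN spreads from 9.01 to 11.50 within the GD165 controls, and BGN stays between 13.68 and 14.41 in all 17 uteri.

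In all, 1 of 8 genes was called in controls, against 11.5% of all probes, and 5.20% of probes were called lower. At an adjusted p of 0.05, 4 of 8 passed, against 21.2% of probes. For 2 of 8, VCAN and PRELP, the ages did not overlap, against 19.4% of probes. The median log2 difference was -0.49 over the 8 genes and 0.0046 over all probes. In BPA-exposed uteri 1 of 8 was called, against 9.68% of probes, and 2 of 8, VCAN and ASPN, did not overlap, against 27.2%. The difference had the same direction in both age comparisons for 7 of 8 genes, all but PRELP, and for 70.7% of all probes.

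Among the class I genes, ASPN had the largest age difference and the largest spread. Asporin binds collagen and TGF-β and lacks the glycosaminoglycan attachment of its relatives. It was 9.66, 8.34, 9.55, 9.18 and 8.82 in GD100 controls and 11.50, 9.86, 9.01 and 11.42 in GD165 controls. Of the GD165 controls, 3 lay above every GD100 control, and replicate 5, at 9.01, lay inside their range. The difference was 1.34 (SE 0.46), 2.52-fold, with an adjusted p of 0.0494, which missed the threshold. Without GD165 control replicate 5 it was 1.81, with an adjusted p of 0.00534, and without replicate 6 it was 0.99, with an adjusted p of 0.173.

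In the BPA groups ASPN was 9.44, 9.49, 8.97, 9.18 and 9.43 at GD100 and 9.87, 10.82 and 11.28 at GD165. These ranges did not overlap. The difference was 1.35 (SE 0.50), 2.56-fold, with an adjusted p of 0.0657. Within slides it was 0.31 and 2.68 in controls and 1.86 in BPA-exposed uteri.

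DCN, the collagen-binding dermatan sulfate proteoglycan for which the family is best known, was 16.83, 16.34, 16.65, 16.77 and 16.01 in GD100 controls. In GD165 controls it was 16.43, 15.84, 15.18 and 16.30. The ranges overlapped, with replicate 5 again lowest. The difference was -0.58 (SE 0.25), with an adjusted p of 0.118, and it was -0.33 without GD165 control replicate 5. On the 2 slides with both ages of control it was -0.81 and 0.42, so its direction differed between these 2 pairs of uteri. In BPA-exposed uteri it was -0.46 (SE 0.27), with an adjusted p of 0.249, and 0.06 on the 1 slide with both ages. With slide as a fixed block it was -0.30 in controls and -0.22 in BPA-exposed uteri, where it was also -0.28 without scaling and -0.29 with the replicate block.

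BGN, the close relative of decorin that also signals through Toll-like receptors, had the smallest age difference in controls. It ranged from 13.91 to 14.35 in GD100 controls, 13.68 to 14.22 in GD100 BPA, 14.00 to 14.41 in GD165 controls and 14.02 to 14.40 in GD165 BPA uteri. All 4 ranges overlapped. The age difference was 0.09 in controls (95% interval -0.19 to 0.38) and 0.25 in BPA-exposed uteri (-0.06 to 0.56). With slide as a fixed block these were 0.26 and 0.12.

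The class II genes carry keratan sulfate or, in PRELP, a basic heparin-binding end. PRELP anchors basement membranes to the collagen beneath. It was 11.91, 11.45, 11.63, 11.93 and 11.37 in GD100 controls and 11.16, 11.08, 10.77 and 11.27 in GD165 controls. The GD165 controls all lay lower. The difference was -0.59 (SE 0.20), with an adjusted p of 0.0458, short of the threshold, and -0.55 and -0.21 within slides. In BPA-exposed uteri it was 0.17 (SE 0.22), with an adjusted p of 0.614, and its sign was not stable. It was -0.65 on the 1 slide with both ages, and it ran from -0.0475 without GD165 BPA replicate 4 to 0.50 without replicate 5.

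LUM, a regulator of fibril spacing best known from the cornea, was 13.94, 13.52, 13.83, 14.02 and 13.00 in GD100 controls and 13.46, 13.11, 12.75 and 13.76 in GD165 controls. The ranges overlapped, and the difference was -0.39 (SE 0.27), with an adjusted p of 0.347. It was -0.22 without GD165 control replicate 5, -0.13 with slide as a fixed block, and -0.72 and 0.46 within slides, so its direction differed between slides. In BPA-exposed uteri it was -0.61 (SE 0.29), with an adjusted p of 0.157, but -0.27 without GD165 BPA replicate 3, -0.17 with slide as a fixed block and 0.18 on the 1 slide with both ages.

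FMOD, which shares a collagen-binding site with lumican, differed by -0.23 (SE 0.16) in controls and -0.20 (SE 0.18) in BPA-exposed uteri. Its ranges were 15.70 to 16.23 in GD100 controls and 15.34 to 16.03 in GD165 controls, and its adjusted p values were 0.348 and 0.466. The control difference was -0.11 without GD165 control replicate 5, and -0.67 and 0.03 within slides. The BPA difference was -0.09 without GD165 BPA replicate 3, -0.34 without replicate 4, -0.10 with slide as a fixed block, -0.11 with the replicate block, -0.0137 without scaling and -0.05 within the 1 slide.

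OGN, the class III member, also called mimecan, was 16.16, 15.84, 15.52, 15.96 and 15.56 in GD100 controls and 15.64, 14.79, 14.99 and 15.45 in GD165 controls. Of the GD165 controls, 3 lay below every GD100 control. The difference was -0.59 (SE 0.20), with an adjusted p of 0.0487, short of the threshold. In BPA-exposed uteri it was -0.13 (SE 0.22), with an adjusted p of 0.734, and its direction turned, from -0.41 without GD165 BPA replicate 5 to 0.0396 without replicate 4, and 0.57 on the 1 slide with both ages. On the 2 slides with both ages of control it was -0.74 and 0.08, and with slide as a fixed block -0.38.

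**Figure D2:**
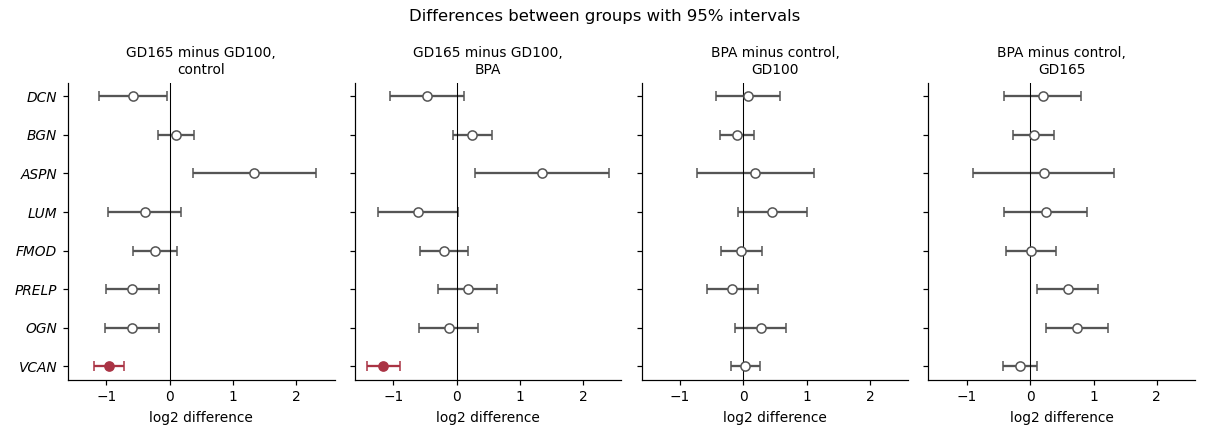
Log2 differences (x axis) of the 8 proteoglycan genes (y axis) in 4 comparisons; points are differences between group means, bars are 95% intervals from the fit to all 17 arrays, and filled points have an adjusted p under 0.01. VCAN, at -0.96 and -1.16 across gestation, is filled in both age comparisons, and no gene is filled in either BPA comparison.

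BPA was compared with control at each age, as the study was designed to do. At GD100, 0 of 8 genes were called by limma, as were 0% of all probes. At an unadjusted p under 0.05 the counts were 0 of 8 and 3.79% of probes, and for 0 of 8 genes, against 0.782% of probes, the groups did not overlap. LUM had the smallest p. It was 14.51, 14.34, 14.00, 13.87 and 13.88 in GD100 BPA uteri, where 3 lay within the control range of 13.00 to 14.02, and the difference was 0.46 (95% interval -0.08 to 1.0, unadjusted p 0.0923). The VCAN difference was 0.03 (-0.19 to 0.26), the FMOD difference -0.03 (-0.36 to 0.29) and the DCN difference 0.08 (-0.43 to 0.58). Those of BGN, -0.10 (-0.37 to 0.17), PRELP, -0.17 (-0.57 to 0.22), OGN, 0.27 (-0.13 to 0.68), and ASPN, 0.19 (-0.73 to 1.11), also had intervals that held 0.

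At GD165, 0 of 8 genes and 0% of probes were called by limma. At an unadjusted p under 0.05 there were 2 of 8 genes, OGN and PRELP, and 8.61% of probes. For 0 of 8 genes, against 7.31% of probes, the groups did not overlap. OGN was 15.72, 15.62 and 16.52 in BPA uteri, and the highest control, 15.64, exceeded the lowest of these. The difference was 0.74 (95% interval 0.25 to 1.23), with an unadjusted p of 0.00585 and an adjusted p of 0.434. Without BPA replicate 5, the highest uterus, it was 0.45.

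PRELP was 11.86, 12.10 and 11.01 in GD165 BPA uteri, so 2 lay above every GD165 control and 1 lay within their range. The difference was 0.59 (0.11 to 1.07), with an unadjusted p of 0.0195 and an adjusted p of 0.511. It was 0.37 without BPA replicate 4 and 0.91 without replicate 5. On the 1 slide with both groups, which held 2 BPA uteri and 1 control, it was 0.82 for PRELP and 0.03 for OGN. The 4 GD165 controls enter this comparison and the comparison of ages in controls, so a low control mean of OGN or PRELP bears on both.

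The other 6 genes differed at GD165 by -0.16 (VCAN, 95% interval -0.43 to 0.11) to 0.24 (LUM, -0.41 to 0.90). The interval was widest for ASPN, -0.90 to 1.32 around 0.21. The intervals were -0.42 to 0.81 for DCN, -0.38 to 0.40 for FMOD and -0.27 to 0.38 for BGN. The test of whether the BPA difference changed with age called 0 of 8 genes and 0% of probes in limma. At an unadjusted p under 0.05 it held 1 of 8 genes, PRELP, and 7.83% of probes. The PRELP term was 0.76 (SE 0.29), with an adjusted p of 0.565.

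The genes differed in how far uteri of 1 group lay apart. The SD within groups was 0.73 for ASPN, 0.43 for LUM, 0.40 for DCN, 0.31 for OGN, 0.31 for PRELP, 0.25 for FMOD, 0.20 for BGN and 0.16 for VCAN. The median over the 16230 probes well above background on all arrays was 0.21. ASPN stood at percentile 96.8 of those probes and VCAN at 33.1.

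Uteri high in DCN within their group were also high in LUM. After group means were subtracted, Pearson's r over the 17 uteri was 0.89 (Spearman's rho 0.85) for these adjacent genes. Among 13650 named genes well above background on all arrays, LUM ranked 4 by likeness to DCN. ASPN followed DCN with r = 0.82 and LUM with r = 0.77, and FMOD followed DCN with r = 0.74. OGN was closest to LUM at r = 0.65. With the other 7 genes, r ran from -0.24 to 0.49 for BGN and from -0.24 to 0.22 for PRELP. VCAN ran against ASPN, with r = -0.73, and against DCN, with r = -0.54. Each point is 1 uterus on 1 array with its own scaling, which all genes of that array share, and the values are descriptions without a test.

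GD165 control replicate 5 was the only array on its slide, so this uterus and its slide cannot be told apart. This uterus weighed on these relations. It was the lowest of its group for 5 of 8 genes, DCN, LUM, FMOD, PRELP and ASPN, and the highest for VCAN. Without it the r of DCN with LUM was 0.89 and that of DCN with ASPN 0.71, whereas that of DCN with VCAN went from -0.54 to -0.19 and that of ASPN with VCAN from -0.73 to -0.53.

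**Figure D3:**
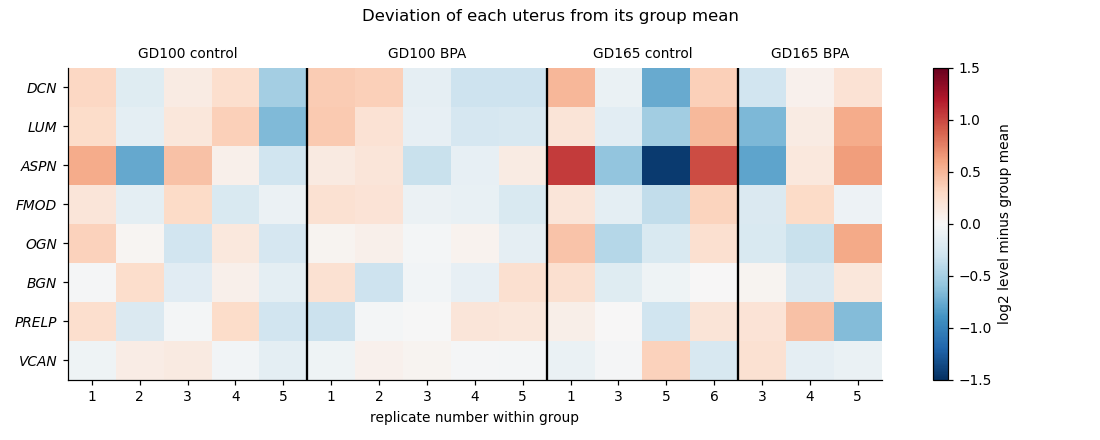
Deviation of each uterus (columns, grouped, with replicate numbers) from its group mean for each proteoglycan gene (rows); red is above and blue below the mean, on a log2 scale. DCN, LUM, ASPN and FMOD share colors in most columns, with r from 0.63 to 0.89 between them, and GD165 control replicate 5 is low for these genes and high for VCAN.

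The named genes closest to each proteoglycan, out of 13650 compared over the 17 uteri after subtraction of group means, were picked for a high r. They were SIN3B, SQSTM1 and AGPAT4 for DCN (r = 0.91, 0.90 and 0.89), and HTRA3, SCAM-1 and RABL2A for LUM (r = 0.92, 0.92 and 0.91). For ASPN they were RNF13, FBLN5 and CD200 (r = 0.93, 0.91 and 0.90), and for FMOD RBM33, NFASC and DOCK11 (r = 0.90, 0.88 and 0.83). VCAN was most like MVD, C6orf125 and FDPS (r = 0.91, 0.89 and 0.89). BGN was most like NTF3, CIB1 and BCAS1 (r = 0.87, 0.85 and 0.81), OGN like BACH2, DAF and B3GNT1 (r = 0.87, 0.85 and 0.82), and PRELP like FLJ20507, PAFAH1B1 and TADA2B (r = 0.89, 0.81 and 0.80).

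Neighboring genes had age differences of both signs. OMD, a keratan sulfate proteoglycan of mineralizing matrix that lies between OGN and ASPN, rose in controls. It was 9.02, 7.49, 8.93, 7.58 and 7.83 in GD100 controls and 10.42, 9.43, 9.99 and 11.74 in GD165 controls. The ages did not overlap, and the difference was 2.22 (SE 0.44), 4.67-fold, with an adjusted p of 0.00224. In BPA-exposed uteri it was 1.93 (SE 0.48), with an adjusted p of 0.0107. So the 3 measured genes of this group had differences of -0.59 (OGN), 2.22 (OMD) and 1.34 (ASPN) in controls.

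Next to LUM and DCN, KERA differed by 0.06 (SE 0.59) and EPYC by 0.10 (SE 0.57) in controls, each with a wider error than LUM and DCN. OPTC, beside PRELP, differed by 0.16 (SE 0.13) in controls and by -0.48 (SE 0.14) in BPA-exposed uteri, with adjusted p values of 0.419 and 0.023. HAPLN1, beside VCAN, was named after its values were seen. It ranged from 9.93 to 11.11 in GD100 controls and from 7.42 to 10.53 in GD165 controls, with a difference of -1.32 (SE 0.55) and an adjusted p of 0.104. In BPA-exposed uteri HAPLN1 fell, with a difference of -2.71 (SE 0.60) and an adjusted p of 0.00546, and the 3 GD165 values were 6.94, 8.25 and 8.33. The test of whether the age difference of HAPLN1 differed between exposed and control uteri gave -1.39 (SE 0.81), with an adjusted p of 0.709.

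**Figure D4:**
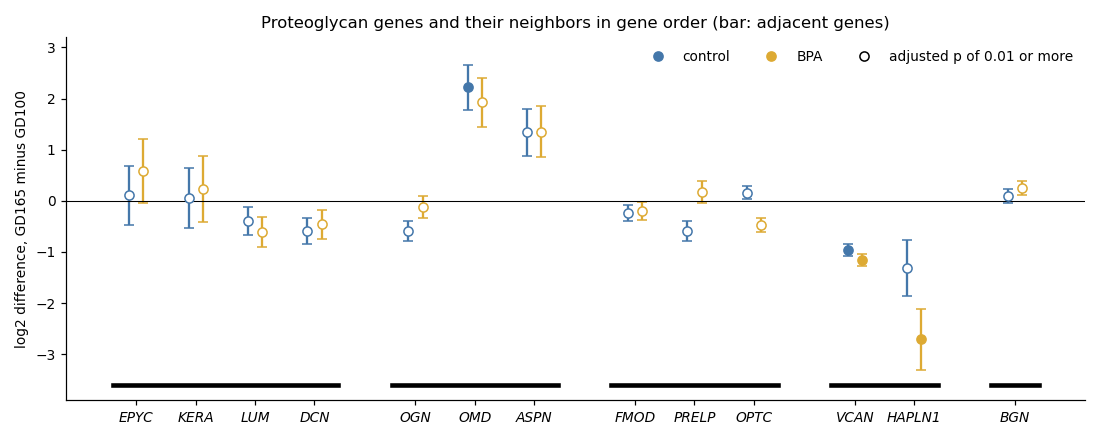
Log2 difference between GD165 and GD100 (y axis) for proteoglycan genes and their neighbors in chromosomal order (x axis), in controls (blue) and BPA-exposed uteri (yellow); bars are SE, filled points have an adjusted p under 0.01, and black bars join adjacent genes. OMD and ASPN lie above 0 beside OGN below 0, and VCAN and HAPLN1 both lie below 0.

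The other genes of proteoglycan biology were counted in 6 lists. Over all probes, 11.5% were called for age in controls, 6.32% higher and 5.20% lower, and nothing particular to a list is drawn from its count. Of the 7 other small leucine-rich genes on the array, OMD was the 1 called in controls, higher at GD165, with 0 lower. Of 18 genes for other hyalectans and for hyaluronan, 4 rose and 0 fell, or 22.2% called. ITIH3, an inter-alpha-trypsin inhibitor heavy chain of the kind that binds hyaluronan, rose by 1.57 (SE 0.25, adjusted p 0.000494), the hyaluronan receptor CD44 by 1.21 (SE 0.20, adjusted p 0.0006), the hyaluronidase HYAL1 by 1.01 (SE 0.18) and the related heavy chain ITIH5 by 0.92 (SE 0.18).

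Of 21 cell surface and basement membrane proteoglycans, 4 rose and 3 fell, or 33.3% called. The glypicans GPC2 and GPC3, heparan sulfate proteoglycans of growing tissue, differed by -1.68 (SE 0.17) and -1.08 (SE 0.18). Serglycin (SRGN), the granule proteoglycan of blood cells, rose by 1.12 (SE 0.13), and COL18A1, a vascular basement membrane component, by 0.78 (SE 0.11). Of 18 genes for chondroitin and dermatan sulfate synthesis, 1 rose and 2 fell, or 16.7%, near the share over all probes. The sulfotransferase CHST7 rose by 1.13 (SE 0.15), while the chain polymerases CHSY3 and CHSY1 differed by -0.83 (SE 0.16) and -0.56 (SE 0.12). Of 7 genes for keratan sulfate synthesis, 0 were called by limma, and their differences ran from -0.07 to 0.60.

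Of 28 genes for partners and proteases of these core proteins, 1 rose and 5 fell, or 21.4% called. The list holds collagens, glycoproteins, proteases, the TGF-β genes, LRP1 and WISP1. ADAMTS4, a protease that cleaves versican and aggrecan, was 2.05-fold lower at GD165, with a difference of -1.03 (SE 0.11) and an adjusted p of 1.86e-05. The versican-binding glycoprotein FBLN1 differed by -0.79 (SE 0.10), COL5A1, the collagen that starts fibrils, by -0.70 (SE 0.12), and the versican-cleaving ADAMTS9 by -0.65 (SE 0.13). In BPA-exposed uteri the calls higher and lower were 1 and 0 of 7, 2 and 2 of 18, 4 and 2 of 21, 1 and 1 of 18, 0 and 0 of 7, and 0 and 4 of 28, in the same order of lists. Of all probes, 9.68% were called in this comparison, 4.82% higher and 4.86% lower. In both BPA comparisons and the test of their difference, 0 genes of the 6 lists were called by limma.

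**Figure D5:**
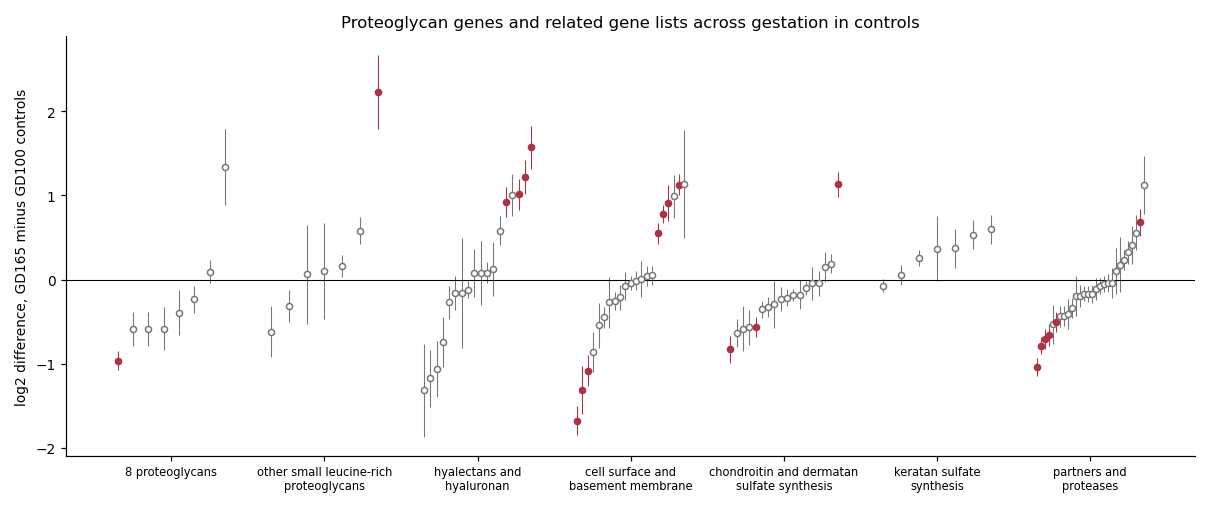
Log2 difference between GD165 and GD100 controls (y axis) for the 8 proteoglycan genes and 6 lists of related genes (x axis), each list in order of its values; bars are SE and filled red points have an adjusted p under 0.01. VCAN, at -0.96, is the filled point among the 8, OMD, at 2.22, the filled point among the other small leucine-rich genes, and 5 of 6 filled points among partners and proteases lie below 0.

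Markers of other cell types moved with age too. The summed linear signal of the 6 stromal fibroblast markers was 484739 to 575789 in GD100 controls and 428668 to 560420 in GD165 controls, and 1 of 6, PDGFRA, was called, at -0.48 (SE 0.11). COL3A1, with means of 18.43 and then 18.38, carried the most signal in this sum. Gene by gene, 5 of 6 means were lower at GD165 and 1 was higher. Of the smooth muscle markers 3 of 8 were called higher, and their summed signal was 1582890 to 2188120 at GD100 and 1952730 to 2615900 at GD165. The epithelial sum was 63019.7 to 101712 and then 143882 to 174780, with 3 of 6 genes called higher, and 6 of 6 proliferation markers were called lower. Of all probes, 6.32% were called higher and 5.20% lower.

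The summed signal of the 7 endothelial markers was 33675.4 to 60218.9 in GD100 controls and 63722.6 to 118694 in GD165 controls, with 1 of 7 called higher. That of the 7 leukocyte markers was 36358.2 to 49546.3 and then 85920.2 to 114050, also with 1 of 7 called higher. Neither pair of ranges overlapped, nor did the ranges of the epithelial sum above, beside the rises of SRGN, COL18A1 and CD44. VWF, with means of 14.66 and then 15.95, carried the most signal in the endothelial sum. CD74, with means of 13.72 and then 15.87, did so in the leukocyte sum. In each list 6 of 7 means were higher at GD165 and 1 was lower (KDR, -0.30, and CSF1R, -0.01). Gene by gene, the ages did not overlap for 2 of 7 endothelial and 1 of 7 leukocyte markers, against 19.4% of all probes. In bulk tissue, fewer cells of a type and less RNA per cell cannot be told apart. The part of these shifts in the fall of VCAN and in the rises of SRGN, COL18A1 and CD44 was not tested.

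Cartilage and tendon, which also express ASPN and OMD, were checked beside them. Of 8 markers, all well above background on every GD165 array, 1 was called higher and 1 lower in controls, and the summed signal was 8981.62 to 10015.8 at GD100 and 7269.45 to 11701.6 at GD165. COL9A1, with means of 12.30 and then 11.92, carried the most signal in this sum by group mean. COMP, a marker of both tissues, was 6.77, 6.52, 10.02 and 11.15 in GD165 controls, against 5.99 to 6.52 in GD100 controls. Its high uteri, replicates 5 and 6, held the lowest ASPN level of the group and one of its high ones. Over all 8 markers, the sums in GD165 control replicates 1, 3, 5 and 6 were 8299.88, 9243.3, 7269.45 and 11701.6. ASPN was 11.50, 9.86, 9.01 and 11.42 in these uteri, and OMD 10.42, 9.43, 9.99 and 11.74. In GD165 BPA replicates 3, 4 and 5 the sums were 8861.78, 9003.24 and 13386.4. There ASPN was 9.87, 10.82 and 11.28, and OMD 10.47, 10.53 and 11.41. Skeletal muscle markers were called higher in 4 of 8 cases. MYH8, a perinatal myosin, reached 13.57 in GD165 control replicate 5, where ASPN was 9.01, and 13.83 in GD165 BPA replicate 5, where ASPN was 11.28. The part of these tissues in the differences of ASPN and OMD was not tested.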

How the data were processed

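The authors extracted each array with Agilent Feature Extraction 9.5 at its single-color defaults and deposited linear intensity values, background-subtracted and not scaled between arrays. Here outlier spots were dropped, log2 values were averaged over the 2 spots that carry a probe (20217 probes), and every array was centered on its own 75th percentile. Printed levels have the mean percentile, 12.62, added to them. limma 3.58.1 in R 4.3.3 (lmFit, eBayes) was fitted to all 17 arrays in 4 groups. Tests were two-sided, with Benjamini-Hochberg adjustment over all probes and a threshold of 0.01, as in the methods, whose error-weighted ANOVA ran in closed software. Scripts were tested on simulated data.

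The 8 genes and all gene lists were chosen with earlier results of these data known. Named genes are the 8, up to 4 per related list with the smallest p among those called for age in controls, and the 3 with the highest r to each of the 8. The neighbors in gene order and the single markers PDGFRA, COL3A1, VWF, KDR, CD74, CSF1R, COL9A1, COMP and MYH8 were named outside this rule. Probe names gave 18017 probes a gene. RefSeq gene order (T2T-MMU8v2.0) served for neighbors only; the array's coordinates are not used here. Each fetus gave 1 array, so p values measure the spread between fetuses.

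Every comparison was refitted with other choices. For the signal these were normexp (offset 50), median, quantile or no scaling, a filter on dim probes (17149 kept), retained outlier spots and probe means per gene. For the fit they were the compared groups alone, ordinary variances, a robust trended prior, weights from the error model, a block for replicate number, and a block for slide, fixed or random. GD165 control replicate 5 had its slide to itself, so the fixed block for slide also takes this uterus out of every difference. It therefore adjusts for slide and omits that uterus at once, so its values cannot be assigned to either alone. Omitting only that uterus left 2271 probes called for age in controls and 2038 in BPA-exposed uteri. With the fixed block for slide these were 1233 and 512. A looser threshold, 0.05, was applied, and every uterus was omitted once.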

Additional observations from a re-analysis of the deposited data

How the results depend on the processing

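VCAN was called in both age comparisons under every alternative, at -1.09 to -0.88 in controls and -1.27 to -0.98 in BPA-exposed uteri over all of them. The count of the 8 genes called in controls was 1 except at a threshold of 0.05, where it was 4, and was 1 to 2 with one uterus left out, the 2 arising without GD165 control replicate 5, where ASPN joined. It was 1 under every alternative in BPA-exposed uteri, and 0 for BPA at either age and for its change with age.

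The differences whose direction turned were at most 0.24 in size. Without scaling, OGN was 0.0554 for age in BPA-exposed uteri, and VCAN was -0.0074 for BPA at GD100 and 0.0062 for the change with age; this setting moved the median of all probes to 0.13 for age in BPA-exposed uteri. With normexp, ASPN was -0.0365 for the change with age. With slide as a fixed block, BGN was -0.15 and ASPN -0.18 for BPA at GD165, and -0.14 and -0.27 for the change with age. With one uterus left out, the ranges that crossed 0 for age in BPA-exposed uteri were -0.41 to 0.0396 (OGN) and -0.0475 to 0.50 (PRELP). For BPA at GD100 they were -0.0517 to 0.15 (DCN), -0.0892 to 0.0409 (FMOD), -0.0019 to 0.33 (ASPN) and -0.0039 to 0.0659 (VCAN). For BPA at GD165 they were -0.0576 to 0.36 (DCN), -0.0294 to 0.16 (BGN), -0.0329 to 0.58 (LUM), -0.14 to 0.12 (FMOD) and -0.27 to 0.61 (ASPN). For the change with age they were -0.13 to 0.29 (DCN), -0.49 to 0.12 (LUM), -0.11 to 0.15 (FMOD) and -0.46 to 0.41 (ASPN). The causes were not tested.

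Replicate numbers name uteri of separate fetuses, and the labels give no pairing. Same-numbered uteri deviated together with r over 0.1 in 3 of 19 pairs (r from -0.17 to 0.16). Pairs with different numbers were not compared, so these values cannot decide whether the numbers pair uteri. With the replicate number as a block, VCAN was -0.88 in controls and -1.16 in BPA-exposed uteri, LUM turned to 0.0466 for the change with age, and probes called for age in controls were 958 against 2328. That count was 1172 with only the compared groups, 1233 with slide as a fixed block, 1531 without scaling and 1512 without GD165 control replicate 6, and the share of calls that were higher was 54.9% against 46.2% with median scaling. For age in BPA-exposed uteri 1956 probes were called, and 512 with slide as a fixed block. With groups of 3 to 5 arrays, differences under the half-widths of the printed intervals could not be shown. These intervals are not adjusted for the number of probes, so larger differences could also miss the threshold on adjusted p. For BPA at GD165, the differences of OGN, 0.74 (interval 0.25 to 1.23), and PRELP, 0.59 (0.11 to 1.07), exceeded their half-widths and were not called by limma.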
